A study of Homo sapiens with 18 samples.

Results

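PSF was knocked down with siRNA in VCaP cells, and the comparison described here rests on 4 of the 18 arrays of the study. These are the arrays labelled VCaP with siPSF or with the control siRNA, siControl, each with ethanol vehicle or with 1 nM R1881, a synthetic androgen. The siPSF array was set against the siControl array of the same treatment, which gave 2 differences per gene, and the change of a gene is their mean on the log2 scale. VCaP is an established human prostate cancer line that depends on androgen and carries a fusion that places the ETS factor gene ERG under androgen control. Before hormone was added, the cells were transfected and kept in medium without phenol red and with charcoal-treated serum, and no source used here states how long the hormone acted. Each group had 1 array. The labels name no separate cultures, and a p-value therefore speaks only of the spread among these samples, possibly a technical one. The study also held 2 VCaP arrays with siCTBP1-AS #2, an siRNA against an antisense RNA of the CTBP1 locus, and 4 arrays of the prostate cancer line LNCaP with siControl or siPSF and vehicle or 10 nM R1881, both used below for comparison.

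PSF is an abundant nuclear protein that binds RNA and DNA. It forms dimers with its relatives NONO and PSPC1, takes part in splicing and in the elongation of transcription, and is a structural part of paraspeckles, nuclear bodies built on a long noncoding RNA. In prostate cancer cells it has been described as a partner of antisense RNA and of histone deacetylase complexes in repressing androgen-regulated genes.

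The values are log2 signals, normalized by RMA, of 13812 genes. Because VCaP alone has 1 array per group, the error of a change comes from a limma fit of all 18 arrays, and it reflects how siRNA effects differed between vehicle and R1881 in the 4 sets of arrays. An adjusted p is limma's p after Benjamini-Hochberg adjustment over all 13812 genes, and a gene is said to have risen or fallen where it is under 0.05. A permutation of 2 arrays against 2 could not go below a two-sided p of 0.333. The luminal keratins KRT8 and KRT18 had VCaP siControl signals of 11.41 and 11.20 in vehicle. KLK3, a luminal prostate marker, and ERG, which marks this line, had signals of 10.89 and 10.38. Of the markers of other cell types, 4 of 8 basal, 4 of 8 fibroblast, 4 of 8 leukocyte and 1 of 6 endothelial genes passed the filter on low signals. Their summed linear signals were 636 to 655 with siControl and 674 to 683 with siPSF for basal genes, and 195 to 209 against 219 to 222 for leukocyte genes. The fibroblast sums under siControl were 1044 in vehicle and 228 in R1881, and under siPSF 1304 and 321. LUM, which encodes the matrix protein lumican, stood at 9.74 and 4.86 with siControl and 10.10 and 6.80 with siPSF (change 1.15, adjusted p = 0.0483 by limma, 0.108 on the 6 VCaP arrays alone, and 0.0668, 0.227 and 0.409 without siPSF vehicle, siControl R1881 and siPSF R1881). In bulk RNA, fewer cells of a type and less RNA per cell cannot be told apart, and the part of such cells in the results below was not tested.

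The target was lower. With siControl the SFPQ signal (transcript cluster 7914791) was 11.02 in vehicle and 11.16 in R1881, and siPSF brought it to 9.70 and 9.61. Both siPSF arrays lay more than 1 log2 unit below both siControl arrays, and with siCTBP1-AS the signal was 11.26 and 11.15. Its decrease was -1.44 as a log2 change (SE 0.10, n = 2 differences, limma adjusted p = 0.000115), which leaves 36.9% of the siControl signal. In LNCaP it fell by 0.79, and the difference between the lines passed limma (-0.64, SE 0.15, adjusted p = 0.0452), though not in the fit of only the 8 arrays concerned (adjusted p = 0.0981). NONO, the usual dimer partner, had a change of 0.00 (SE 0.10, adjusted p = 0.994), with signals of 11.67 and 11.17 against 11.52 and 11.32. PSPC1 stood at 9.72 and 9.36 with siControl and 10.14 and 9.94 with siPSF, a change of 0.50 (SE 0.13) that missed the threshold (limma adjusted p = 0.054). SFPQ was the 1 gene called among 19 tested PSF relatives and paraspeckle components, and NEAT1, the RNA scaffold of paraspeckles, was not analysed here. None of 33 splicing factor genes passed limma, and their median change was -0.04.

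With siPSF, limma called 907 of 13812 genes in VCaP (6.57%), 351 higher (2.54%) and 556 lower (4.03%). Without adjustment, 2938 genes had p under 0.05. In all 907 the vehicle and R1881 differences had the same sign, which a call on their mean favours. The median change was 0.65 among genes that rose and -0.66 among those that fell, and the far ends differed. Of the genes that rose, 67 rose at least 2-fold and 21 at least 4-fold, while 77 fell at least 2-fold and 2 at least 4-fold. Both siPSF arrays lay above both siControl arrays for 242 of the 351 genes that rose, against 12.2% of all genes tested, and below both for 462 of the 556 that fell, against 17.5%. Calls made on these same 4 arrays favour such a separation. Fewer genes were called when an array was left out. Each such fit keeps 1 full pair of siPSF and siControl arrays. The array left without a partner still enters it, through an R1881 term that the siCTBP1-AS arrays share. Without siControl vehicle the balance turned, with 215 higher and 165 lower. Fitted on the 6 VCaP arrays alone, limma called 597, of which 550 were among the 907.

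**Figure D1:**
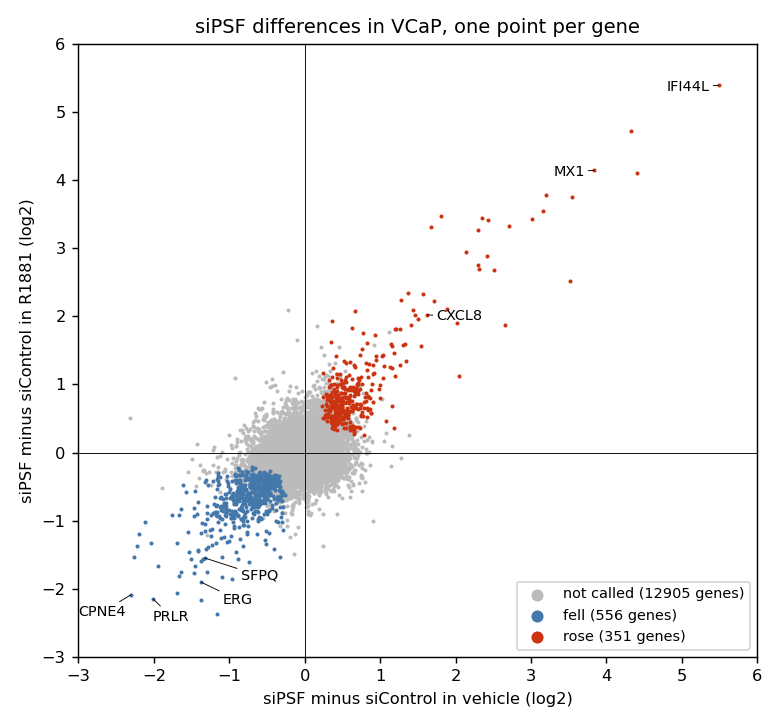
Each point is 1 of 13812 genes, with the siPSF minus siControl difference (log2) in vehicle on the x axis and in R1881 on the y axis, each from 1 pair of VCaP arrays. Genes that rose (351, red) reach 5.49 in vehicle and 5.39 in R1881 at IFI44L, and genes that fell (556, blue) reach less far, with CPNE4 at -2.30 and -2.09.

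The genes with the largest increases were interferon-stimulated genes. Interferons are signal proteins of the antiviral defence: their receptors activate transcription factors, IRF9 among them, which bind response elements in promoters and switch on genes whose products sense, degrade or trap viral RNA. IFI44L, an interferon-induced gene of antiviral function, had signals of 4.69 and 4.37 with siControl and 10.18 and 9.76 with siPSF. Its signal rose by 5.44 on the log2 scale (SE 0.54, limma adjusted p = 0.000452). The lowest mean signal over the 6 VCaP arrays among genes tested was 5.14, and the IFI44L siControl arrays lie below it, so the siControl level is not shown to be above background and no fold is given. IFIT1, whose product binds foreign RNA by its 5′ end, went from 5.67 and 6.16 to 9.99 and 10.89 (change 4.52, SE 0.51, adjusted p = 0.000925). For each of these genes the gap between the siRNAs was several times the gap between vehicle and R1881.

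IFITM1, a membrane protein that blocks viral entry, stood at 6.19 and 6.31 with siControl and 10.59 and 10.42 with siPSF, a rise of 4.26 (SE 0.34, limma adjusted p = 0.000215). MX1, a dynamin-like GTPase that traps viral components, rose by 3.99 (SE 0.15, adjusted p = 2e-06), from 5.04 and 5.47 to 8.87 and 9.61. RSAD2, encoding viperin, which makes a nucleotide that halts viral RNA synthesis, rose by 3.64 (SE 0.25), from 5.38 and 5.52 to 8.92 and 9.27. No siPSF array overlapped a siControl array for any of the 5 genes, which their choice by the size of the rise favours. Among all genes tested, 12.2% had both siPSF arrays above both siControl arrays. The other 10 of the 15 largest rises were DDX60 at 3.49, IFI44 at 3.35, SAMD9L at 3.22, IFI6 at 3.02, OAS2 at 3.02, IFIT3 at 2.92, PLSCR1 at 2.90, SAMD9 at 2.78, OAS1 at 2.66 and SP110 at 2.64. OAS1 and OAS2 make the second messenger that activates RNase L, and SAMD9 and SAMD9L restrict poxviruses. Of these 15 genes, 12 were called whichever of the 4 arrays was left out. The exceptions were SAMD9 without siControl R1881 (adjusted p = 0.0766) and, without siPSF R1881, SAMD9, OAS1 and SP110 (adjusted p = 0.117, 0.0618 and 0.0556).

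The promoters of many of these genes share a short motif. In RefSeq promoter windows of GRCh38.p14, which run from 250 bases before to 50 after the annotated start, the letters GAAANNGAAA or their complement TTTCNNTTTC, the core of the interferon-stimulated response element, were searched on both strands. A match is a description of the letters and not a measured binding site, and it was the 1 motif searched. Windows were given for 14 of the 15 genes with the largest rise, and 11 of them (78.6%) held the motif, against 3.57% of all 35116 windows. Of the genes that rose, 293 had a window and 52 (17.7%) held it. Of those that fell, 430 had a window and 22 (5.12%) held it. The stretches below, of 100 bases each upstream of the start and written 5′ to 3′ on the gene's strand with the matches in capitals, show how the motif stands once in IFI44L, IFITM1 and RSAD2, in tandem in IFIT1, and repeated in DDX60 and IFI6.
IFI44L (chr1:78620264-78620363, plus strand): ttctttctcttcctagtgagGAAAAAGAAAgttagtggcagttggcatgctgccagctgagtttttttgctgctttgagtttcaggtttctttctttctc
IFIT1 (chr10:89392487-89392586, plus strand): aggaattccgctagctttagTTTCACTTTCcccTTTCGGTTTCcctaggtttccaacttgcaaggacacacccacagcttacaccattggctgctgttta
IFITM1 (chr11:313940-314039, plus strand): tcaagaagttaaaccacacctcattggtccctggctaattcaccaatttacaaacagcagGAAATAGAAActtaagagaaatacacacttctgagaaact
RSAD2 (chr2:6877612-6877711, plus strand): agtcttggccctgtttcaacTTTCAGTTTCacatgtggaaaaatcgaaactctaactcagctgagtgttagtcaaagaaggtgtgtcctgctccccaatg
DDX60 (chr4:168318761-168318860, minus strand): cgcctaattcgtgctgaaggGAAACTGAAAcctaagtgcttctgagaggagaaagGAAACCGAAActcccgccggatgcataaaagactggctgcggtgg
IFI6 (chr1:27672269-27672368, minus strand): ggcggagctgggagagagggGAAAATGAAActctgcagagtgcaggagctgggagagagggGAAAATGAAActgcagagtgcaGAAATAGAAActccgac

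As a group, 31 of 35 tested interferon response genes rose and 0 fell, next to 2.54% of all genes that rose. Their median change was 1.99, from 0.18 to 5.44. For 34 of the 35 both siPSF arrays lay above both siControl arrays, against 12.2% of all genes tested. The medians were 2.01 in vehicle and 2.24 in R1881. In 4 of the 35, IFI44L, IFIT3, SAMD9L and MX2, both siControl signals were under 5.14, and such genes passed the filter only through the other arrays. Of the 29 with both siControl signals at or above it, 26 rose. Sensors of foreign RNA were among them, with RIGI at 1.99 and IFIH1 at 1.64, as were the transcription factors IRF9 at 2.26, IRF7 at 1.18 and IRF1 at 0.74. IRF9 went from 7.85 and 8.60 to 10.50 and 10.47. ISG15, the ubiquitin-like modifier, rose by 1.54, and USP18, which removes it and damps the receptor, by 1.96. CXCL10 and CXCL11, chemokines that attract T cells, rose by 2.60 and 1.38. The 4 members that did not pass were ISG20 at 0.18, OASL at 0.79, MX2 at 0.87 and XAF1 at 1.25 (adjusted p = 0.103 for OASL, 0.0596 for MX2 and 0.112 for XAF1 by limma). Without siPSF R1881, 17 of the 35 passed, without siControl R1881 22, and without either vehicle array 25.

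Chemokines and stress genes outside the interferon list also rose. CXCL8, the neutrophil chemokine interleukin-8, had signals of 7.82 and 7.66 with siControl and 9.45 and 9.69 with siPSF, a rise of 1.82 (SE 0.13, limma adjusted p = 0.000104). CCL5 rose by 1.44 (SE 0.13, adjusted p = 0.0003) from 5.47 and 5.64 to 6.78 and 7.22, and TNFAIP3, a brake on NF-kB, by 1.05 (adjusted p = 0.00422). These were 3 of 14 inflammatory and NF-kB genes, where 2.54% of all genes rose, and the list median was 0.16. CCL2 at 1.45 did not pass (adjusted p = 0.0565), and NFKBIA had a change of 0.31 and ICAM1 of -0.11. TNFAIP3 was not called without siControl R1881 or without siPSF R1881 (adjusted p = 0.0513 and 0.0737).

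**Figure D2:**
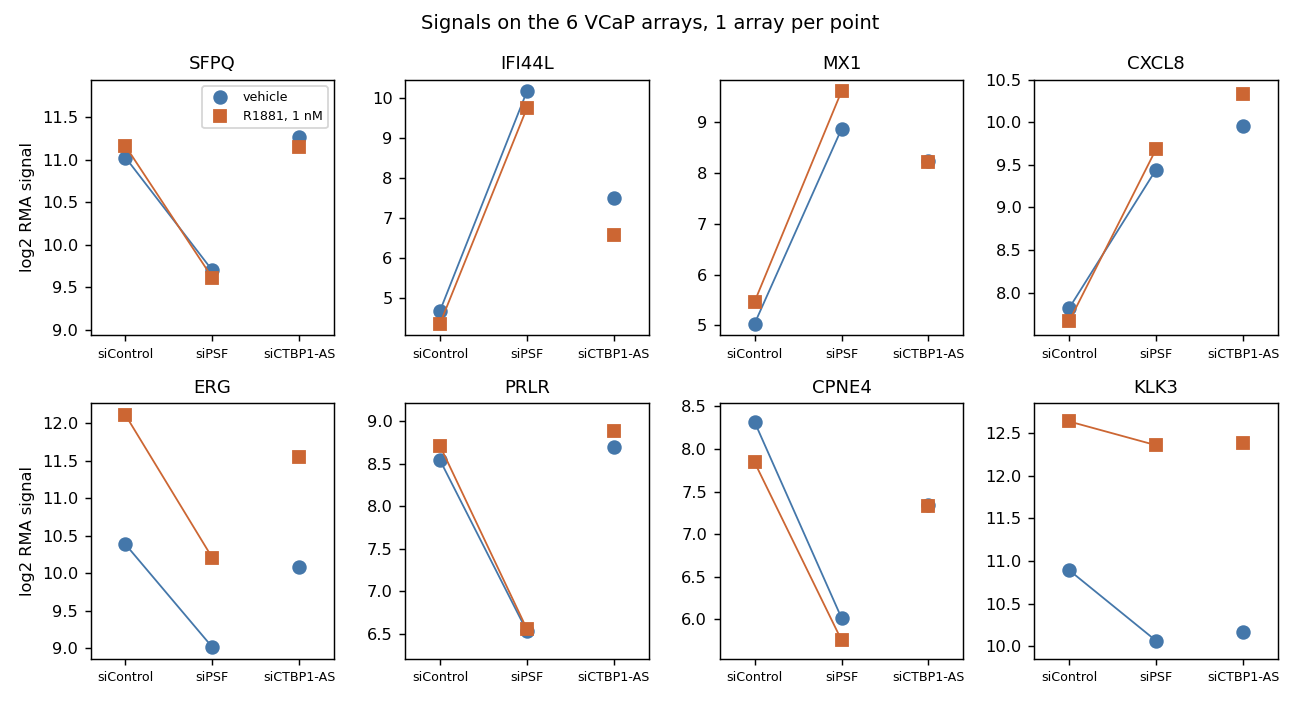
The log2 RMA signal of 8 genes on the 6 VCaP arrays is shown by siRNA, with 1 array per point, circles for vehicle and squares for 1 nM R1881, and lines joining siControl to siPSF of the same treatment. SFPQ, ERG, PRLR and CPNE4 are lower and IFI44L, MX1 and CXCL8 higher with siPSF in both treatments, and with siCTBP1-AS IFI44L reaches 7.51 and 6.57, between the other siRNAs.

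Immediate early genes, which serum and growth factors switch on within minutes, had 5 of 25 members called, all higher, where 2.54% of all genes rose. SPRY4, an inhibitor of receptor tyrosine kinase signalling, rose by 0.79, FOS by 0.72, EGR1 by 0.67, FOSB by 0.65 and JUND by 0.53, with a list median of 0.19. Of the 4 with the largest changes none passed under each left-out array, and FOS and FOSB passed under none. In the TGF-beta and BMP pathway 3 of 26 genes rose, all of them known as BMP targets: ID1 by 1.08, ID3 by 0.97 and SMAD6 by 0.80. With siCTBP1-AS, against the same siControl arrays, their changes were 0.97, 0.90 and 0.28. The direct difference between the siRNAs was not called for ID1 or ID3 (0.12 and 0.07, limma adjusted p = 0.804 each). For SMAD6 it was 0.52 (limma adjusted p = 0.0373, and 0.0867 on the 6 VCaP arrays alone). ID3 went from 8.75 and 8.81 to 9.59 and 9.92 and passed under each left-out array (adjusted p = 0.00636 to 0.033). PMAIP1, which encodes the proapoptotic protein NOXA, was the 1 of 19 apoptosis genes that rose, by 1.27 (adjusted p = 0.0143), and it did not pass without siControl R1881 or siPSF R1881 (0.136 and 0.189). A count of 1 in 19 is near the share over all genes. With siCTBP1-AS PMAIP1 rose by 1.80, and the direct difference between the siRNAs was not called (-0.53, limma adjusted p = 0.262). Of the amino acid stress genes CHAC1 and CEBPB rose by 1.22 and 0.57, which was 2 of 20, and neither passed once any of the 4 arrays was left out.

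The largest decreases had another makeup. CPNE4, a copine that binds membranes in response to calcium, had signals of 8.32 and 7.84 with siControl and 6.02 and 5.75 with siPSF, and fell by 2.19 on the log2 scale (SE 0.16, limma adjusted p = 0.000108). PRLR, the prolactin receptor, went from 8.54 and 8.71 to 6.53 and 6.56, which left 23.6% of the siControl signal (change -2.08, SE 0.16, adjusted p = 0.000171). Neither gene showed overlap between siPSF and siControl arrays, which their choice by the size of the fall favours. Among all genes tested, 17.5% had both siPSF arrays below both siControl arrays. For CPNE4 and PRLR the treatments differed by less than the siRNAs did.

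CLYBL, a mitochondrial citramalyl-CoA lyase, fell by 1.90 (SE 0.18), from 8.28 and 6.29 to 6.02 and 4.76. ZHX2, a transcriptional repressor with zinc fingers and homeoboxes, fell by 1.88 (SE 0.15), and NAALADL2 by 1.81 (SE 0.15). RORB, an orphan nuclear receptor, had a change of -1.80, PRKCA, protein kinase C alpha, of -1.77, and ST6GAL1, a sialyltransferase, of -1.76. SORBS2 was lower by -1.74, MID1, a ubiquitin ligase on microtubules, by -1.70, NFIA, a transcription factor, by -1.69, PLCB1, phospholipase C beta 1, by -1.68, PEMT, which makes phosphatidylcholine, by -1.62 and CNTN4, an axonal adhesion protein, by -1.57. The limma adjusted p of the 15 genes ran from 0.000104 for NFIA to 0.0162 for PRKCA, and 12 of the 15 largest decreases passed under each left-out array. PRKCA passed under none of the 4 (adjusted p = 0.054 to 0.198), MID1 not without either vehicle array (0.0807 without siControl, 0.0855 without siPSF) and ST6GAL1 not without siPSF R1881 (0.0735).

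ERG, the ETS factor of the VCaP fusion (transcript signal under androgen control in this line), stood at 10.38 with vehicle and 12.11 with R1881 under siControl, and at 9.01 and 10.20 under siPSF. Within each treatment it was lower with siPSF, by 1.37 and 1.90 log2 units, and its signal was higher in R1881 than in vehicle under both siRNAs. ERG fell by 1.64 on the log2 scale (SE 0.14, limma adjusted p = 0.000215), to 32.1% of the siControl signal, and passed under each left-out array. Among 14 genes of ETS factors and ERG partners, the other gene that fell was CACNA1D, a calcium channel subunit, by 0.71, where 4.03% of all genes fell. Its call was lost without siControl vehicle, siControl R1881 or siPSF R1881 (adjusted p = 0.069, 0.0644 and 0.137).

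Many of the genes that fell are long. By RefSeq annotation the median length was 87.5 kb for genes that fell, 26.3 kb for those that rose and 26.2 kb for all genes tested, and it was 371 kb for the 15 largest decreases, of which 14 were at least 100 kb and 9 at least 300 kb long. Of 450 tested genes of at least 300 kb, 111 fell (24.7%), next to 4.03% of all genes, and 1 rose, FRMD4B at 0.51. In the shorter classes 2.69% fell under 10 kb, 2.03% from 10 to 30 kb, 2.93% from 30 to 100 kb and 8.20% from 100 to 300 kb. The median change at 300 kb and over was -0.27 (-0.35 in vehicle and -0.23 in R1881), against 0.01 from 30 to 100 kb. Both differences were below 0 for 308 of the 450 genes (68.4%), against 34.1% of all genes tested.

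The longest decreases included NRXN3, a presynaptic adhesion gene of 1698 kb, with signals of 8.22 and 8.28 against 7.47 and 7.69 (change -0.68). NAALADL2, at 1370 kb, stood at 9.71 and 9.17 against 7.76 and 7.50, and CNTN4, at 959 kb, at 7.07 and 5.50 against 4.96 and 4.48. Examples chosen after their values were seen were EGFR, the epidermal growth factor receptor (change -1.36), MAPT, the microtubule protein tau (-1.23), and INPP4B, a phosphatase of phosphoinositides (-1.41). The share of genes of 300 kb and over that fell was 21.9% among the genes above the median signal (40 of 183), an alternative chosen after seeing the data. It was 10.4% without siControl vehicle, 16.4% without siControl R1881, 12.7% without siPSF vehicle and 10.9% without siPSF R1881. These genes share the 4 arrays and the probe design, which reads along the whole transcript, and their signals averaged 7.47 against 8.27 for genes of 30 to 100 kb. The part of signal level was not tested beyond this.

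**Figure D3:**
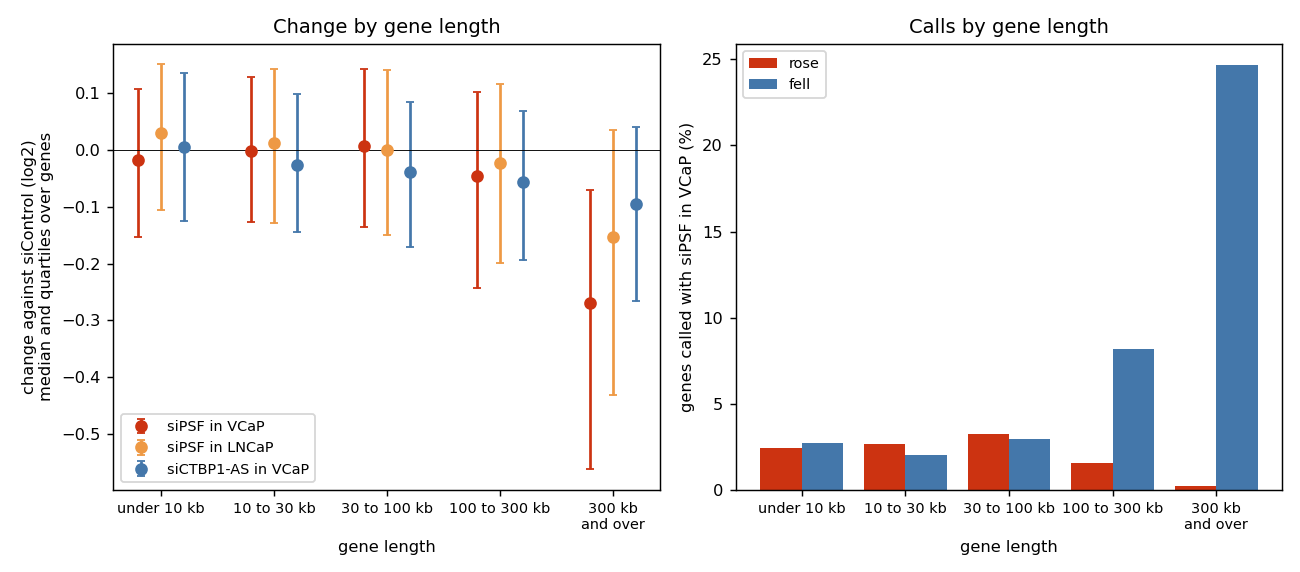
The left panel plots the median and quartiles over genes of the log2 change against siControl by gene length, for siPSF in VCaP, siPSF in LNCaP and siCTBP1-AS in VCaP, and the right panel the percentage of genes that rose or fell with siPSF in VCaP. The medians at 300 kb and over are -0.27, -0.15 and -0.10, and 24.7% of these genes fell in VCaP.

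Neural genes were among the long genes that fell. Of 13 tested axon and synapse genes, 0 rose and 3 fell, where 4.03% of all genes fell: CNTN4, NCAM2 at -0.75 and NRXN3. NCAM2, a neural adhesion molecule with lower signal in R1881, stood at 7.44 and 4.95 with siControl and 6.29 and 4.61 with siPSF, so its groups overlapped across treatments. NRXN3 passed under none of the left-out arrays, and NCAM2 not without either vehicle array (adjusted p = 0.204 without siControl and 0.205 without siPSF). SNAP25, a synaptic vesicle fusion protein, was the 1 of 13 neuroendocrine genes that fell, by 0.93 (SE 0.11, limma adjusted p = 0.00124), from 7.74 and 7.23 to 6.68 and 6.43. The chromogranin genes CHGA and CHGB had changes of -0.14 and -0.19.

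Among androgen-induced genes, 2 of 31 fell with siPSF, near the 4.03% of all genes, and 0 rose. In siControl cells the median R1881 difference was 1.02 over the 31 genes, and in siPSF cells it was 1.06. ABCC4, a transporter of cyclic nucleotides and prostaglandins, was lower with siPSF in both treatments, at 8.37 and 10.23 against 9.48 and 11.08 (change -0.98, SE 0.11, limma adjusted p = 0.000925). KLK3, which encodes prostate-specific antigen, stood at 10.89 and 12.64 with siControl and at 10.06 and 12.36 with siPSF. It fell by 0.55 (SE 0.13, adjusted p = 0.0358), but not on the 6 VCaP arrays alone (adjusted p = 0.0972), nor without siControl vehicle, siPSF vehicle or siPSF R1881 (0.273, 0.285 and 0.0828). With siCTBP1-AS the KLK3 signals were 10.16 and 12.39, and the siRNAs did not differ by the test of the difference (-0.06, SE 0.13, adjusted p = 0.847). KLK2 had a change of -0.48 (adjusted p = 0.12) and STEAP4, the metalloreductase, of -1.25 (adjusted p = 0.22, and 0.00262 on the 6 VCaP arrays).

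Of 15 androgen-repressed genes 0 were called in either direction. Their median R1881 difference was -2.57 with siControl and -1.68 with siPSF. WNT2, a secreted growth factor, went from 9.66 to 5.10 with R1881 under siControl and from 9.02 to 5.64 under siPSF, and SYTL2, a vesicle protein, from 10.36 to 6.48 and from 9.50 to 6.81. The test of the siPSF effect against treatment, a product term in limma, called 0 of 13812 genes (0%), and 0 under each of the filters, the repeated quantile normalization, the mean of clusters and the other variance prior. Before adjustment 662 genes had p under 0.05, among them 6 of the 15 repressed genes. With 1 array per group it rests on single values.

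Genes of cell division were higher with siPSF, by less. The mitotic list had 21 of 39 genes called, all higher, where 2.54% of all genes rose. Its median was 0.51, and 38 of the 39 were above 0, against 6479 of all 13812 genes. ANLN, the contractile ring protein anillin, stood at 9.58 and 8.79 with siControl and 10.27 and 9.77 with siPSF (change 0.84, SE 0.13, limma adjusted p = 0.00609). KIF2C, a kinesin that shortens microtubules, rose by 0.81, PLK4, the kinase of centriole duplication, by 0.79 and NCAPG, a condensin subunit, by 0.73. MKI67, the proliferation marker, rose by 0.56, and CDK1 at 0.62 did not pass (adjusted p = 0.0778). Their signals were lower in R1881 than in vehicle in VCaP, with a median difference of -0.84 under siControl and -0.51 under siPSF, and the siPSF effect had a median of 0.33 in vehicle and 0.69 in R1881. With siCTBP1-AS, against the same siControl arrays, the list median was 0.27 with 1 gene called higher, where 0.956% of all genes were. The direct difference between the siRNAs called 2 of 39, both higher with siPSF, next to 2.27% of all genes. The calls depended on the arrays that set the spread: on the 6 VCaP arrays alone 6 of the 39 passed. Without siControl vehicle 10 passed, without siPSF vehicle 15, without siControl R1881 1 and without siPSF R1881 0.

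In the DNA replication list 4 of 39 genes rose, where 2.54% of all genes rose: RRM2 by 0.86, CDC45 by 0.83, RFC3 by 0.77 and GINS2 by 0.72. Of the 39 genes, 37 were above 0, against 6479 of all 13812 genes, with a list median of 0.41. The direct difference from siCTBP1-AS called 0 of the 39 by limma. RRM2, a subunit of ribonucleotide reductase, went from 8.85 and 7.54 to 9.44 and 8.67. Without either R1881 array 0 of the 39 passed by limma, without siPSF vehicle 2 and without siControl vehicle 9, and 8 passed with quantile normalization repeated within each set. Of 22 genes of homologous recombination BRIP1 rose by 0.91 and RAD51C by 0.38, but neither passed on the 6 VCaP arrays alone (adjusted p = 0.0609 and 0.112). RAD51C passed under none of the left-out arrays, and BRIP1 not without siControl R1881 or siPSF R1881 (0.181 and 0.275), with a change of 0.49 to 1.33. Next to 2.54% of all genes, 6 of 17 replication-dependent histone genes rose. H2BC21 led these, from 8.51 and 8.83 to 9.69 and 10.29 (change 1.32, SE 0.12, limma adjusted p = 0.000283), and histone genes are near-identical, so probes may not separate them. MYC had a change of -0.63 (adjusted p = 0.0866) and CDKN1A of 0.03 (adjusted p = 0.936), and 0 of 14 cyclin and CDK inhibitor genes passed.

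Ribosomal protein genes had changes below 0 with both VCaP siRNAs on balance. With siPSF all 27 tested had a change below 0, against 7333 of all 13812 genes, with a list median of -0.27. Of the 27, 6 fell, where 4.03% of all genes fell: RPL13 by 0.84, RPL22 by 0.83, RPL23 by 0.64, RPS9 by 0.54, RPL11 by 0.53 and RPS2 by 0.38. RPL13 stood at 10.08 and 9.56 with siControl and 9.17 and 8.80 with siPSF. RPL13 and RPL22 passed under each left-out array. With siCTBP1-AS, against the same siControl arrays, the median was -0.19 with 2 genes called lower, where 1.22% of all genes were. The direct difference between the siRNAs called 0 of 27 by limma. Without siControl R1881 4 of the 27 passed, and without each of the other arrays 2. With a variance prior that follows the signal 18 passed. Pseudogenes of this family are many, so its values are uncertain.

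Single genes fell or rose in other lists, and each of those named next lost its call under at least 2 of the 4 left-out arrays. PGK1, the glycolytic phosphoglycerate kinase, fell by 0.70, and ADM, the vasodilator adrenomedullin, rose by 0.68, among 24 hypoxia and glycolysis genes. AGMAT fell by 0.70 (1 of 12 polyamine genes), CLOCK by 0.48 (1 of 16 circadian clock genes) and MDM2, the ubiquitin ligase of p53, by 0.47 (1 of 21 p53 targets). Of all genes 4.03% fell and 2.54% rose, so a single call is no result about its list. CLOCK and MDM2 did not pass on the 6 VCaP arrays alone (adjusted p = 0.0801 and 0.0756), and CLOCK, MDM2, PGK1 and TNRC6A passed under none of the left-out arrays. TNRC6A, a scaffold of the microRNA complex, rose by 0.58. SPINK1, a trypsin inhibitor, rose by 0.74, from 8.38 and 6.84 to 8.86 and 7.85. The corepressor list had 0 of 18 genes called, with CTBP1 at 0.07, HDAC1 at -0.29 (adjusted p = 0.101) and SIN3A at -0.01, and SMAD3 had a change of -0.19. Also without a call were 18 cholesterol, 16 fatty acid, 21 unfolded protein response, 15 oxidative stress, 18 SRF and actin and 15 adhesion genes.

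**Figure D4:**
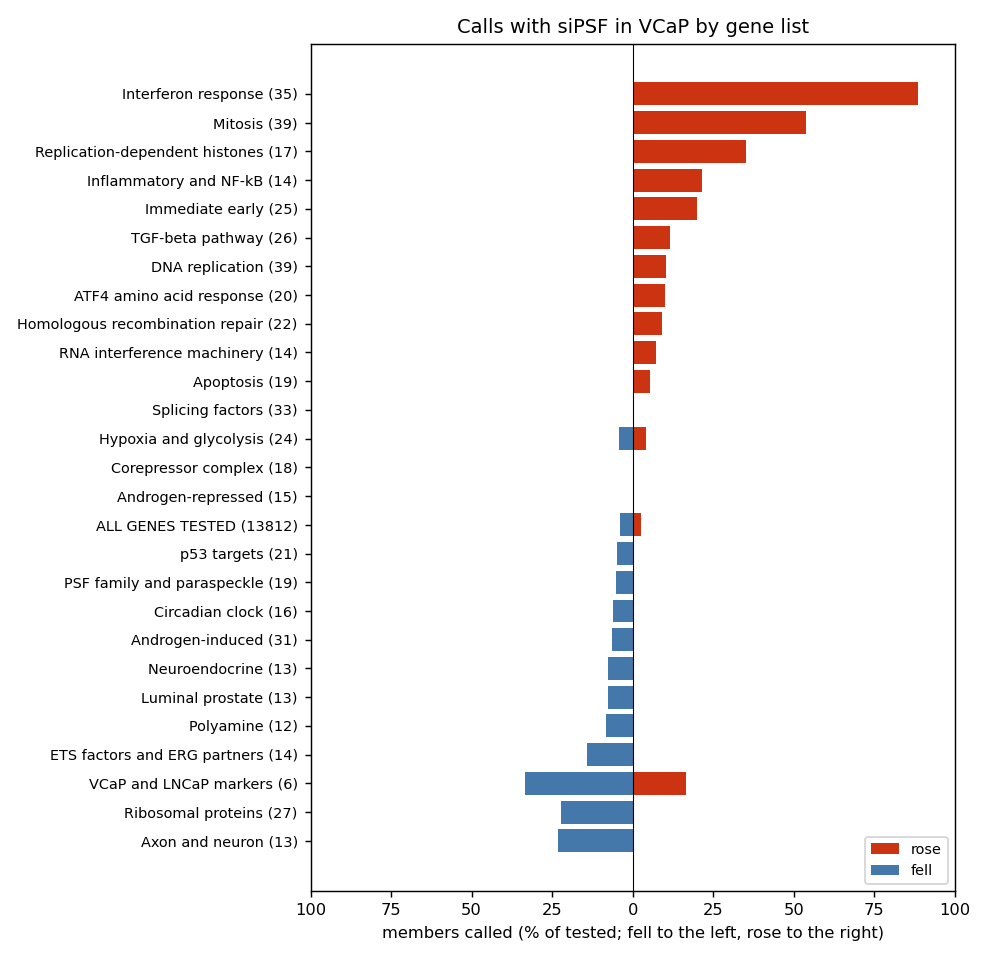
For each gene list of at least 5 tested genes with a call, and for 3 lists without one (androgen-repressed, splicing factors, corepressors), with the number of tested genes in brackets, bars give the percentage of members that rose (right, red) or fell (left, blue) with siPSF in VCaP by limma. The interferon list (31 of 35) and the mitotic list (21 of 39) extend farthest to the right, and all genes tested stand at 2.54% and 4.03%.

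The VCaP arrays with siCTBP1-AS share the siControl arrays with those of siPSF, so the changes are given side by side and tested through the direct difference between the siRNAs, in which siControl cancels. Interferon genes were higher with both siRNAs. IFI44L reached 7.51 and 6.57 with siCTBP1-AS (change 2.51) and was higher still with siPSF (difference 2.93, SE 0.54, limma adjusted p = 0.0151). The difference was 1.01 for MX1 (SE 0.15, adjusted p = 0.00606), whose own change with siCTBP1-AS was 2.98, and 1.73 for IFIT1, which did not pass (adjusted p = 0.0891). Of 35 interferon genes 14 rose with siCTBP1-AS, which called 300 genes (2.17%) and of all genes raised 0.956%. Their median was 1.14, and 13 were higher with siPSF than with siCTBP1-AS, next to 2.27% of all genes. CXCL8 went the other way, with 9.96 and 10.34 under siCTBP1-AS, and was lower with siPSF by 0.58 (adjusted p = 0.0295), as were FOS (-0.86, adjusted p = 0.0149) and EGR1 (-0.47, adjusted p = 0.0375). On the 6 VCaP arrays alone CXCL8 and EGR1 did not pass (adjusted p = 0.0874 and 0.088).

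Over all genes the direct difference called 669 (4.84%), 313 higher (2.27%) and 356 lower (2.58%) with siPSF. Besides IFI44L, the largest higher with siPSF were ALB, OAS2, SAMD9L and IFIT3. ALB, serum albumin, stood at 10.95 and 8.99 with siControl, 11.25 and 9.60 with siPSF and 8.89 and 7.53 with siCTBP1-AS, so the difference of 2.22 came with a change of -1.76 under siCTBP1-AS and of 0.46 under siPSF. The largest lower with siPSF were PRLR at -2.25, CNTN4 at -1.79, ZHX2 and RORB at -1.69 each and PRKCA at -1.58. PRLR kept signals of 8.69 and 8.89 with siCTBP1-AS. Of the 556 genes that fell with siPSF 228 were lower than with siCTBP1-AS, and of the 351 that rose 90 were higher. Of the 111 genes of 300 kb and over that fell, 62 were lower than with siCTBP1-AS. All these genes were picked on the same siPSF arrays, which favours such counts. Of all 450 tested genes of 300 kb and over, 79 were lower with siPSF than with siCTBP1-AS and 3 higher. Calls of this difference numbered 199 without siPSF vehicle and 107 without siPSF R1881, and IFI44L, OAS2 and PRKCA passed in neither case (adjusted p = 0.103, 0.0706 and 0.0859 without the first, 0.165, 0.212 and 0.329 without the second). IFIT3 did not pass without siPSF R1881 (0.146).

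In LNCaP, with its own siControl arrays, siPSF changed 542 genes (3.92%), 184 higher (1.33%) and 358 lower (2.59%). The lines were grown in different media and given different doses of R1881 and stood in separate sets, so line, dose and set cannot be told apart. Decreases were shared in part. Of the 556 genes that fell in VCaP 381 (68.5%) had a change below 0 in LNCaP, against 49.1% of all genes, and 118 fell there as well, which is 21.2% of the VCaP and 33.0% of the LNCaP decreases. NAALADL2 fell by 1.30 in LNCaP, CLYBL by 1.34, NFIA by 1.03, PEMT by 1.03, ZHX2 by 1.00 and EGFR by 1.03. In LNCaP, NFIA went from 10.94 and 10.39 to 10.05 and 9.22. Of the 111 long genes that fell in VCaP 93 were below 0 in LNCaP and 48 fell there.

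Increases were seldom shared. Of the 351 genes that rose in VCaP 167 (47.6%) were above 0 in LNCaP, against 50.9% of all genes, 10 rose there and 33 fell. The interferon list had a median of 0.06 in LNCaP with 0 of 35 called, and MX1 stood at 5.65 and 5.37 with siControl against 5.61 and 5.51 with siPSF. IFITM1, outside this list, already stood at 9.78 and 9.12 with siControl in LNCaP. In VCaP it was at 6.19 and 6.31 with siControl and 10.59 and 10.42 with siPSF, so LNCaP left less room to see a rise. The test of the difference between lines called 23 of the 35 list members, all higher in VCaP, where 1.93% of all genes were. IFIT1 was higher in VCaP by 4.76 (SE 0.72, limma adjusted p = 0.011), IFITM1 by 4.29, IFI44L by 4.25, MX1 by 3.94 and RSAD2 by 3.48. IFI44L did not pass this test under any left-out array (adjusted p = 0.0665 to 0.111), and IFIT1 not without siControl R1881 or siPSF R1881 (0.0513 and 0.0766). PMAIP1 and CHAC1, in contrast, rose in LNCaP too, by 1.71 and 1.53.

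Mitotic genes moved in opposite directions in the lines. In LNCaP 21 of 39 fell, where 2.59% of all genes fell, with a list median of -0.55. The test of the difference between lines called 33 of the 39, with ANLN at 1.49 and PLK4 at 1.46. PLK4 went from 8.65 and 7.47 to 7.84 and 6.94 in LNCaP, against 8.88 and 7.14, then 9.32 and 8.30, in VCaP. The difference called 456 genes (3.3%), 267 higher (1.93%) and 189 lower (1.37%) in VCaP, and 235 on the 8 arrays concerned. Without siPSF R1881 45 were called (20 higher, 25 lower), without siControl R1881 148 (55 higher, 93 lower), without siPSF vehicle 219 and without siControl vehicle 329. The largest lower in VCaP were ACTA2 at -3.15, CPNE4 at -2.17, AHNAK2 at -2.08, CIB2 at -1.85 and RORB at -1.80. ACTA2, smooth muscle actin, owed this to LNCaP, where it rose by 2.87, from 6.83 and 6.70 to 8.71 and 10.56. In VCaP the ACTA2 change was -0.28 (adjusted p = 0.703). AHNAK2 and CIB2 also rose in LNCaP, by 1.33 and 1.44, which made up most of their differences. In VCaP the AHNAK2 change was -0.75 (limma adjusted p = 0.0639, and 0.0386 on the 6 VCaP arrays alone). That of CIB2 was -0.41 (adjusted p = 0.033, and 0.0909 on the 6 VCaP arrays). The filter used VCaP signals. In LNCaP siControl cells ERG stood at 4.19 and 4.45, CPNE4 at 4.99 and 4.64, CNTN4 at 4.21 and 3.92, PRLR at 5.20 and 4.42 and RORB at 5.15 and 5.18, near or below the lowest mean tested, which leaves little room to see a decrease there.

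**Figure D5:**
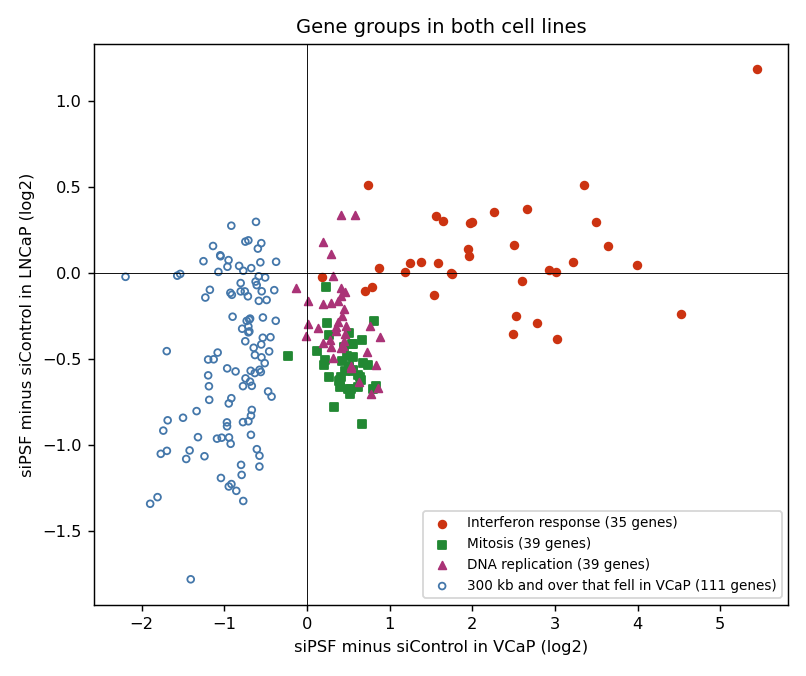
Each point is a gene, with the siPSF minus siControl change (log2) in VCaP on the x axis and in LNCaP on the y axis, for 35 interferon response, 39 mitotic and 39 DNA replication genes and for 111 genes of 300 kb and over that fell in VCaP. Interferon genes spread along the x axis near 0 in LNCaP, mitotic genes lie right of 0 and below it, and 93 of the 111 long genes lie below 0 in both lines.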

How the data were processed

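RNA of 18 samples of LNCaP and VCaP was measured on Affymetrix gene arrays, 1 array each. Each deposited value is the log2 signal of a transcript cluster. According to the submitters' processing notes, the authors summarized it by RMA in Expression Console 1.1.1. Of 33297 clusters, 19460 carried 1 gene symbol. A gene was read from its brightest cluster over the 18 arrays, and genes in the lowest 25% by mean VCaP signal were left out. The deposited table keeps no background or detection values. limma 3.58.1 in R 4.3.3 was fitted with terms for the array set, for R1881 within the set and for each siRNA within the set, with 5 residual degrees of freedom. The fit was tested on simulated data of the same design. It recovered 22 of 50 genes with a log2 change of 0.5 and 49 of 50 with a change of 1. Of its 185 calls, 14 were false. In place of a detection limit, the number of arrays limits the precision.

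The compared arrays, the gene lists and the tests were chosen with earlier results of these data known. Named are SFPQ, the 15 largest rises and falls, up to 4 called genes per list, a fixed set of regulators, and the 5 largest of each direct difference. Members named beyond this rule were chosen after their values were seen. Alternatives were the arrays in the fit, the filter, the normalization, the cluster rule, the variance prior, the R1881 term and each array left out. Gene lengths and promoter windows came from RefSeq (GRCh38.p14), with lengths for 99.9% of genes tested.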

Additional observations from a re-analysis of the deposited data

Results flagged for a closer look

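The siPSF effect differed between VCaP and LNCaP for 456 genes (3.3% of all tested) by limma's test of the difference. Of the 88 genes named by rule 44 were among them, 30 higher and 14 lower in VCaP. The rule itself took the largest VCaP changes and the largest values of this difference, which favours that count. Those higher in VCaP included interferon-stimulated genes, with log2 differences of 4.76 for IFIT1, 4.29 for IFITM1, 4.25 for IFI44L, 3.94 for MX1, 3.48 for RSAD2, 3.40 for IFI6, 3.19 for DDX60 and 3.15 for SAMD9L. PLSCR1 followed at 3.10, SAMD9 at 3.07, OAS2 at 3.01, IFIT3 at 2.91, IFI44 at 2.84, SP110 at 2.83 and OAS1 at 2.28. Inflammatory genes among them were CCL5 at 1.50, CXCL8 at 1.41 and TNFAIP3 at 1.30. Genes of replication, chromatin and mitosis were H2BC21 at 1.63, RRM2 at 1.53, ANLN at 1.49, PLK4 at 1.46, CDC45 at 1.36, NCAPG at 1.26, GINS2 at 1.18, H3C10 at 1.13, KIF2C at 1.09, RFC3 at 1.07 and H2AC4 at 1.02, and the BMP target ID3 stood at 0.75. In the fit of only the 8 arrays concerned, NCAPG, GINS2, RFC3 and ID3 were among those that did not pass (limma adjusted p = 0.0509, 0.0578, 0.0632 and 0.0777). IFITM1 stood at 9.78 and 9.12 in LNCaP siControl cells, which left less room to see a rise there.

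Lower in VCaP were ACTA2 at -3.15, CPNE4 at -2.17, AHNAK2 at -2.08, CIB2 at -1.85, RORB at -1.80 and PRLR at -1.75. ERG and CNTN4 followed at -1.56 each. For ACTA2, AHNAK2 and CIB2 most of the difference was a rise in LNCaP, by 2.87, 1.33 and 1.44. Their changes in VCaP were -0.28, -0.75 and -0.41. For CPNE4, RORB, PRLR, ERG and CNTN4 the LNCaP siControl signals lay near or below 5.14, the lowest mean VCaP signal tested, which leaves little room to see a decrease in LNCaP. Smaller differences were SNAP25 at -1.08, RPL22 at -1.03, AGMAT at -0.92, RPL13 at -0.76, ABCC4 at -0.76 and the target SFPQ at -0.64. In the fit of only the 8 arrays concerned, CNTN4, ABCC4 and SFPQ were among those that did not pass (limma adjusted p = 0.0754, 0.0715 and 0.0981). Outside the genes with a symbol, 166 of 5758 tested clusters without a symbol in the platform annotation were called with siPSF in VCaP (2.88%), 61 higher and 105 lower, and they were used in no comparison.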

How the results depend on the processing

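With 1 array per group, the spread behind every p comes from siRNA effects in vehicle against R1881, and the number of arrays limits the precision. The siPSF effect called 597 genes on the 6 VCaP arrays, 422 on the 4 siControl and siPSF arrays and 126 with vehicle and R1881 arrays as plain replicates, of which 550, 399 and 126 were among the 907. The difference from siCTBP1-AS called 430 on the 6 VCaP arrays and the difference between lines 235 on 8 arrays, where the share of calls with the same sign in LNCaP was 64.3% against 60.4%. Leaving out 1 array gave 222 to 432 genes for the siPSF effect, 107 to 678 for the difference from siCTBP1-AS, 45 to 329 for the difference between lines, a share of 56.3 to 73.0% and an SFPQ change of -1.56 to -1.32. The filters, repeated quantile normalization, the mean of clusters and the variance prior kept 704 to 895 of the 907 calls. Among named genes, CDKN1A, NONO, CTBP1 and SIN3A, none of them called, had a change of the other sign under 1 or 2 left-out arrays. The balance of higher and lower calls turned for the siPSF effect without siControl vehicle (215 and 165), for the difference from siCTBP1-AS with the genes below the median signal left out (366 and 328) and for the difference between lines without siControl R1881 (55 and 93) or siPSF R1881 (20 and 25). With no filter 14.3% of genes of 300 kb and over fell. No paired analysis was possible because the VCaP arrays carry no replicate numbers that could serve as a block; the pairing by treatment is part of the reported fit, as its R1881 term.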
